A study of Mus musculus with 8 samples.

Results

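The ErbB receptors and EGF-family ligands were examined as 10 genes named by symbol, the ligands *Areg*, *Ereg*, *Hbegf*, *Btc*, *Tgfa* and *Nrg1*, the receptors *Egfr*, *Erbb2* and *Erbb3*, and the receptor inhibitor *Errfi1*, in RNA-seq counts of NMuMG cells. These are 10 of the 37310 genes in the deposited table, and all 10 were among the 13028 genes with enough reads to be tested. NMuMG cells are an epithelial line derived from the mammary gland of a mouse. The study used CRISPR-Cas9 to delete a fragment between promoter and exon 1 of *Lnc-Nr6a1*, the host gene of a pair of miR-181 microRNAs, and compared these cells with control cells, untreated or exposed to TGF-β1 at 10 ng/ml for 2 h, with 2 libraries in each of the 4 groups. All cells were grown in medium with serum and insulin. Deleted cells were grown out from single sorted cells, and the labels do not say how many clones the libraries represent, so a difference between genotypes cannot be told apart from a difference between clones.

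EGF-family ligands are made as membrane-anchored precursors, and sheddases of the ADAM family release their active part. Ligand binding brings receptors together in pairs, and the pair signals through the RAS-MAP kinase and PI3 kinase routes to growth, survival and migration. EGFR binds amphiregulin, epiregulin, HB-EGF, betacellulin and TGF-α, whereas ERBB3 binds neuregulins and ERBB2, which has no known ligand, serves as their partner. In mammary epithelium amphiregulin carries the estrogen signal for duct growth. Several of the ligand genes and *Errfi1*, whose product blocks the kinase domain of active receptors, are themselves induced within hours of EGFR or MAP kinase activation.

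The libraries held between 4297832 and 13574397 counts, with the untreated libraries below the treated ones, and the lowest member count in any library was 49. *Lnc-Nr6a1* is listed as *Gm13507*, and its counts were 3 and 14 in the untreated control libraries but 11 and 7 in the untreated libraries labelled knockout. After TGF-β they were 25 and 35 in control and 0 and 0 in libraries labelled knockout. The untreated libraries therefore go against their genotype label at this gene, on low counts taken over the whole gene. By RT-qPCR the paper reports that the isoforms were fully lost in homozygous clones. Every genotype comparison here is one of libraries labelled knockout (KO) with libraries labelled control. The TGF-β comparison in KO-labelled cells and the interaction rest on the same untreated libraries and their labels. Of 10 epithelial markers, *Krt8*, *Krt18*, *Krt19* and *Cdh1* were abundant, while *Epcam* reached at most 0.187 CPM (counts scaled to library size) and *Cldn3*, *Cldn7* and *Esrp1* were at 0 in all 8 libraries, where 3 counts would correspond to 0.238 to 0.661 CPM. The summed level of 8 fibroblast markers lay between 0.797 and 4.85 CPM, that of 6 leukocyte markers between 2.16 and 5.71 CPM and that of 6 endothelial markers at or below 0.847 CPM.

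Levels of different genes were compared as CPM per kilobase of annotated exon, averaged over the 8 libraries. On this scale the ligands *Areg*, *Ereg* and *Nrg1* had the highest means over the 8 libraries, and the other ligands did not all stand above the receptors. *Areg* had the highest mean level, 67.3 CPM per kb, with libraries from 42.5 to 150.5. *Ereg* had a mean of 30.8 CPM per kb, with libraries from 14.6 to 90.5, and *Nrg1* one of 29.1 CPM per kb. The order of their group means differed between treatments. *Ereg* was at a mean of 16.0 and 15.1 CPM per kb in untreated control and KO-labelled cells, where *Nrg1* was at 34.5 and 40.8, and, through 1 high library in each treated pair, at 39.2 and 52.9 CPM per kb after TGF-β, where *Nrg1* was at 18.2 and 22.8. *Tgfa* stood at 19.0, *Egfr* at 16.1, *Hbegf* at 15.9, *Errfi1* at 13.8 and *Erbb2* at 12.6 CPM per kb. The ranges of these 5 genes over libraries overlapped each other and that of *Ereg*, so their order is not fixed. *Btc*, at 4.10 CPM per kb, and *Erbb3*, at 2.07 CPM per kb, were the lowest members. Among the receptors the order of *Egfr* and *Erbb2* also depended on treatment. Untreated, *Egfr* was at 9.46 and 7.70 CPM per kb in control and KO-labelled cells and *Erbb2* at 12.7 and 15.4. After TGF-β, *Egfr* was at 24.7 and 22.6 CPM per kb and *Erbb2* at 8.95 and 13.2. Both were above *Erbb3*, whose highest library, 3.47 CPM per kb, was below the lowest library of *Egfr*, 7.18, and of *Erbb2*, 8.69.

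**Figure D1:**
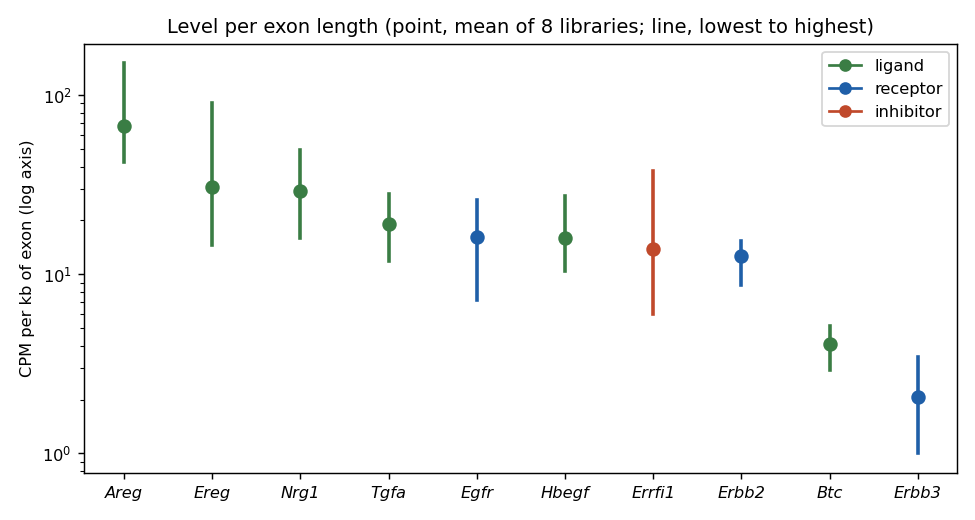
Level of each member in CPM per kilobase of exon on a log axis, as the mean of 8 libraries (point) with the lowest and highest library (line), coloured by role. *Areg* is the highest at 67.3 CPM per kb and *Erbb3* the lowest at 2.07 CPM per kb, and the lines of *Ereg* and *Errfi1* are long.

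The genes for *Ereg* (chr5:91503643-91522675), *Areg* (chr5:91568641-91577458) and *Btc* (chr5:91786287-91831939, on the minus strand) lie in this order in NCBIM37, the build of the annotation whose gene identifiers the counts carry. A gap of 46.0 kb separates *Ereg* from *Areg*, and 208.8 kb separate *Areg* from *Btc*. *Egfr* (chr11:16652206-16818161) and *Erbb2* (chr11:98273784-98299030) are both on chromosome 11, and *Errfi1* is at chr4:150228028-150243001. Promoter sequences, 250 bases before to 50 after an annotated start, were taken from RefSeq on GRCm38.p6, which holds 7 of them for 6 members, *Areg*, *Btc*, *Egfr*, *Erbb2*, *Errfi1* and *Tgfa*. They were searched on both strands for TGACGTCA, the binding sequence of CREB and ATF factors, for TGANTCA, the AP-1 sequence, for TATAAA, the TATA box, for GTCTAGAC, the SMAD palindrome, and for the CArG box of serum response factor. The promoters of *Areg* and of 1 of the 2 *Errfi1* starts both hold TGACGTCA and TATAAA, and the other 5 promoters hold none of the searched sequences. Of all 32851 promoters, 1.79% hold TGACGTCA, 13.6% TATAAA, 7.81% TGANTCA, 1.63% a CArG box and 0.213% GTCTAGAC. In *Areg* TGACGTCA begins 61 bases and TATAAA 31 bases before the start, and in *Errfi1* these distances are 51 and 28 bases. Shown are the promoters of *Areg* and *Errfi1*, whose levels varied together among the treated libraries, and of *Egfr*, whose level did not vary with them. All 3 are on the plus strand of GRCm38.p6, *Areg* at chr5:91139349-91139648, *Errfi1* at chr4:150854820-150855119 and *Egfr* at chr11:16751953-16752252, and capitals mark TGACGTCA and TATAAA.
Areg: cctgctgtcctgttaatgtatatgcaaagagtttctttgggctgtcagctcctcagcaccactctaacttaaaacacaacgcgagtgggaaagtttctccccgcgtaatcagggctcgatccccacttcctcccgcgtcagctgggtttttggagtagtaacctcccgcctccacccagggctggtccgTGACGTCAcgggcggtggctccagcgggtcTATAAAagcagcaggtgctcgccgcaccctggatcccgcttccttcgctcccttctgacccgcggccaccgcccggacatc
Errfi1: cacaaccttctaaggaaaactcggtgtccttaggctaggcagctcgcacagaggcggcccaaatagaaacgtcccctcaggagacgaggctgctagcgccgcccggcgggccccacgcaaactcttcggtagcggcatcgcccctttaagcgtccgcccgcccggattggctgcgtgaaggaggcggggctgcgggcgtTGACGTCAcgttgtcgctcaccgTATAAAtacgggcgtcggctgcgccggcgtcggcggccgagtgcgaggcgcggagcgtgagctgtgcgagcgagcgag
Egfr: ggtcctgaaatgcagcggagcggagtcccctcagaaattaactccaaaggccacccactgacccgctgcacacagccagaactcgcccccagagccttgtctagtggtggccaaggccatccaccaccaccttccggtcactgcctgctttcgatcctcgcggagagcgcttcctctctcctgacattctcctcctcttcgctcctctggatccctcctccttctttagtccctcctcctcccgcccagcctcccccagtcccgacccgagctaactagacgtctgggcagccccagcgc
A match describes the letters and is not a measured binding site.

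*Egfr* was the member that rose after TGF-β in every library of both genotypes. Its level, in CPM with TMM scaling, was 92.9 and 121.3 in replicates 1 and 2 of untreated control cells and 263.9 and 294.6 in treated control cells. In the libraries labelled KO it was 81.3 and 93.0 untreated and 248.7 and 262.3 treated. All 4 treated libraries were thus above all 4 untreated ones, and replicates of a group differed at most 1.31-fold, in untreated control cells. Group means were 107.1 ± 20.1 CPM (SD, n = 2) in untreated and 279.3 ± 21.7 CPM (SD, n = 2) in treated control cells, and 87.2 ± 8.26 (SD, n = 2) and 255.5 ± 9.60 CPM (SD, n = 2) in the corresponding KO-labelled cells. The log2 fold change was 1.38 ± 0.17 (SE), or 2.61-fold, in control cells (edgeR quasi-likelihood test, Benjamini-Hochberg adjusted p = 0.00203). In the KO-labelled cells it was 1.55 ± 0.17 (SE), or 2.93-fold (edgeR, adjusted p = 0.00116). A gene was called when its adjusted p was below 0.05 and its absolute log2 fold change above 0.5, and *Egfr* was called in both comparisons under each of the 10 alternative settings, with adjusted p of 4.19e-12 to 0.0316 in control and 2.92e-16 to 0.0376 in KO-labelled cells. *Egfr* was the only member called for TGF-β, 1 of 10 in each genotype. This share is close to that of all tested genes in control cells, of which 9.16% were called, 4.69% as higher and 4.47% as lower. In KO-labelled cells 6.82% of all tested genes were called, 4.25% as higher and 2.57% as lower. In bulk RNA a change in the RNA per cell and a change in the share of cells that express a gene cannot be told apart.

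**Figure D2:**
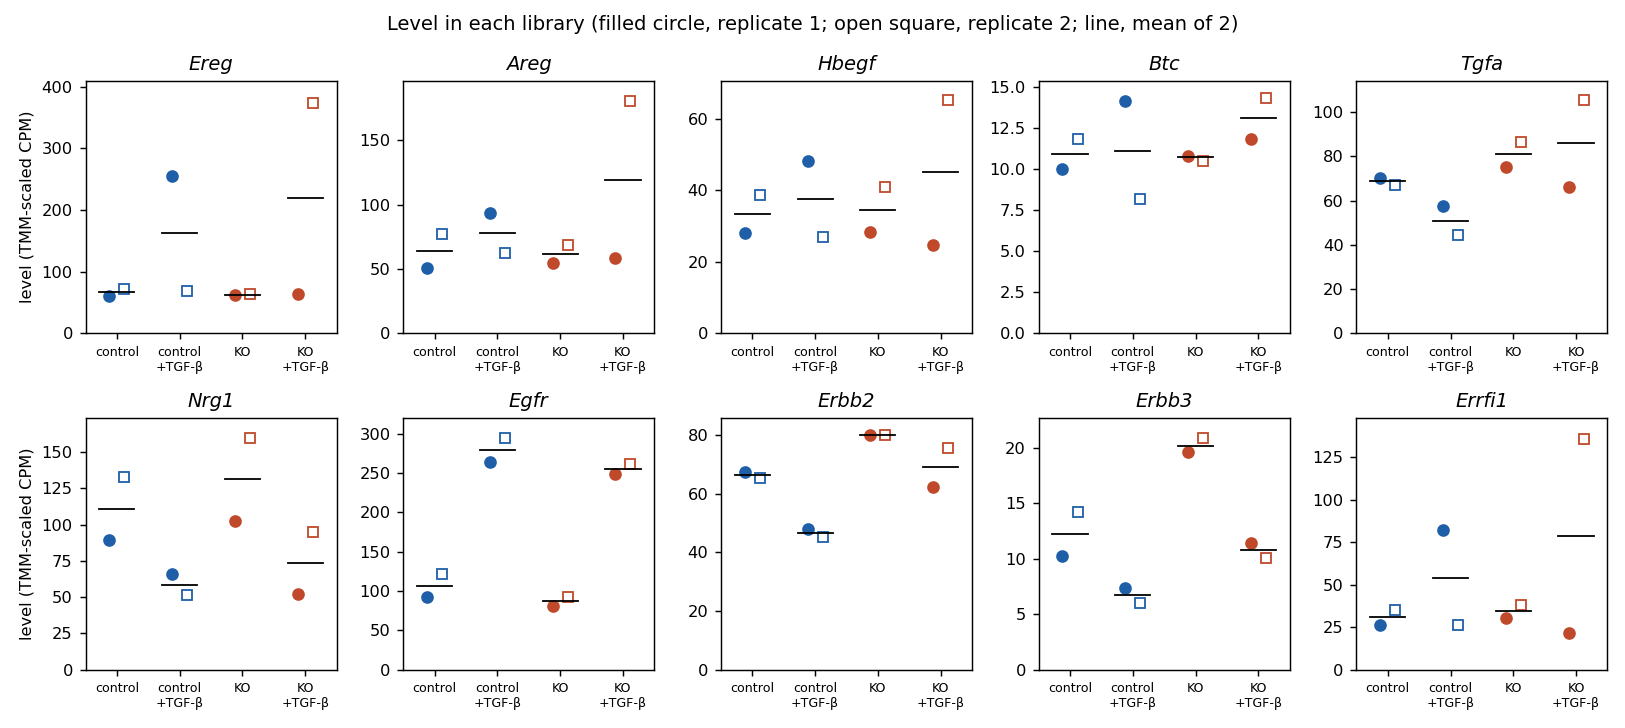
Level of each member in each of the 8 libraries, in TMM-scaled CPM on axes from 0, for control (blue) and KO-labelled (red) cells without and with TGF-β, with replicate 1 as filled circles, replicate 2 as open squares and the mean of 2 as a line. *Egfr* is separated by treatment in both genotypes, while *Ereg*, *Areg*, *Hbegf* and *Errfi1* have 1 high library in each treated pair, replicate 1 in control and replicate 2 in KO-labelled cells.

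*Ereg* encodes epiregulin, a ligand of EGFR and ERBB4. It was at 60.4 and 71.6 CPM in untreated control cells and at 255.3 and 69.1 CPM in treated control cells. In KO-labelled cells it was at 61.9 and 63.3 CPM untreated and at 63.2 and 374.4 CPM treated. In each treated pair 1 library was thus several times higher than its partner, and the other lay between the untreated libraries of its genotype. The replicates differed 3.69-fold in treated control cells and 5.93-fold in treated KO-labelled cells, against 1.19-fold and 1.02-fold in the untreated pairs. The log2 fold change after TGF-β was 1.30 ± 0.73 (SE) in control cells (edgeR, adjusted p = 0.284) and 1.80 ± 0.74 (SE) in KO-labelled cells (edgeR, adjusted p = 0.187), so that neither passed the test. Without treated control replicate 1 the value was 0.06, and without treated KO-labelled replicate 2 it was 0.02. The size of both values therefore came from 1 library in each genotype.

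*Areg*, the gene of amphiregulin, had the same 2 high libraries at a smaller distance. It was at 50.9 and 77.4 CPM in untreated control, 93.2 and 62.3 in treated control, 54.7 and 68.4 in untreated KO-labelled and 58.2 and 180.4 CPM in treated KO-labelled cells. Treated and untreated libraries overlapped in both genotypes. The log2 fold change was 0.28 ± 0.44 (SE) in control cells (edgeR, adjusted p = 0.731) and 0.95 ± 0.45 (SE) in KO-labelled cells (edgeR, adjusted p = 0.245). Leaving out the higher library of the treated pair gave -0.05 and -0.08.

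*Hbegf*, which encodes the heparin-binding ligand of EGFR and ERBB4, was at 27.9 and 38.7 CPM in untreated control and 48.3 and 27.0 CPM in treated control cells. It was at 28.2 and 40.9 CPM in untreated and 24.7 and 65.2 CPM in treated KO-labelled cells. The libraries overlapped in both genotypes, and the higher treated libraries were again control replicate 1 and KO-labelled replicate 2. The log2 fold changes of 0.18 ± 0.43 (SE) and 0.37 ± 0.43 (SE) did not pass the test (edgeR, adjusted p = 0.828 in control and 0.668 in KO-labelled cells).

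*Btc*, the gene of betacellulin, was the lowest ligand and stayed between 8.15 and 14.3 CPM. Its libraries were 10.0 and 11.8 CPM in untreated control, 14.1 and 8.15 in treated control, 10.8 and 10.5 in untreated KO-labelled and 11.8 and 14.3 CPM in treated KO-labelled cells. The treated libraries lay above the untreated ones in KO-labelled cells and on both sides of them in control cells. Its log2 fold changes were 0.03 ± 0.29 (SE) and 0.30 ± 0.30 (SE) (edgeR, adjusted p = 0.957 and 0.611). The annotated pseudogene *Gm15710* spans the *Btc* locus on the same strand. Whether their exons overlap was not checked, so the counts of *Btc* may be uncertain.

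*Tgfa*, which encodes TGF-α, an EGFR ligand unrelated to TGF-β in its signalling, was at 70.4 and 66.9 CPM in untreated and 57.4 and 44.2 CPM in treated control cells. In KO-labelled cells it was at 75.4 and 86.4 CPM untreated and 66.3 and 105.6 CPM treated. Treated control libraries were both below the untreated ones, and in KO-labelled cells they overlapped. The log2 fold changes were -0.43 ± 0.23 (SE) in control cells (edgeR, adjusted p = 0.254) and 0.09 ± 0.23 (SE) in KO-labelled cells (edgeR, adjusted p = 0.864).

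*Nrg1*, the gene of neuregulin 1, a ligand of ERBB3 and ERBB4, had treated libraries below untreated ones in both genotypes. It was at 89.3 and 132.8 CPM in untreated and 66.1 and 51.3 CPM in treated control cells. It was at 102.7 and 159.9 CPM in untreated and 52.0 and 94.9 CPM in treated KO-labelled cells. Groups did not overlap in either genotype. The log2 fold changes of -0.92 ± 0.32 (SE) and -0.84 ± 0.32 (SE) did not pass the test (edgeR, adjusted p = 0.105 in control and 0.155 in KO-labelled cells). The call depended on the setting, since DESeq2 called *Nrg1* in control cells (adjusted p = 0.0241) and edgeR without a filter on low counts called it in both genotypes, while the other alternatives did not. Over all 10 alternatives the adjusted p ran from 5.37e-05 to 0.413 in control and from 0.000941 to 0.582 in KO-labelled cells.

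*Erbb3*, the receptor of neuregulins, was low and had treated below untreated libraries in both genotypes, as *Nrg1* had. Its libraries were 10.3 and 14.2 CPM in untreated control, 7.40 and 6.03 in treated control, 19.6 and 20.9 in untreated KO-labelled and 11.4 and 10.1 CPM in treated KO-labelled cells. Treated libraries were below untreated ones without overlap in each genotype, and KO-labelled libraries were above control ones without overlap at each treatment. The log2 fold change after TGF-β was -0.86 ± 0.26 (SE) in control cells (edgeR, adjusted p = 0.0678) and -0.91 ± 0.25 (SE) in KO-labelled cells (edgeR, adjusted p = 0.0588), both just outside the threshold. Across the 10 alternatives the log2 fold change stayed between -1.07 and -0.61 in control and between -1.0 and -0.82 in KO-labelled cells, and the adjusted p ran from 0.0494 to 0.317 and from 0.0445 to 0.288.

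*Erbb2*, the shared partner receptor, was at 67.4 and 65.4 CPM in untreated and 48.0 and 45.3 CPM in treated control cells. It was at 80.0 and 80.0 CPM in untreated and 62.4 and 75.4 CPM in treated KO-labelled cells. Treated libraries were below untreated ones in both genotypes. The log2 fold changes of -0.51 ± 0.15 (SE) and -0.22 ± 0.15 (SE) did not pass the test (edgeR, adjusted p = 0.0633 in control and 0.435 in KO-labelled cells). The end of *Erbb2*, at position 98299030, overlaps the end of *1810046J19Rik*, at 98299022 on the other strand, which had 197 to 557 counts. Reads in this short overlap cannot be assigned, since it is unknown whether the counting used strand.

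*Errfi1* encodes MIG6, the feedback inhibitor of EGFR and ERBB2. It was at 26.4 and 34.9 CPM in untreated and 82.1 and 26.1 CPM in treated control cells. It was at 30.6 and 38.0 CPM in untreated and 21.6 and 135.3 CPM in treated KO-labelled cells. As with *Ereg*, 1 library of each treated pair was high, and its partner was below every untreated library of its genotype. The treated replicates differed 3.14-fold in control and 6.27-fold in KO-labelled cells. The log2 fold changes were 0.82 ± 0.72 (SE) and 1.19 ± 0.73 (SE) (edgeR, adjusted p = 0.501 in control and 0.378 in KO-labelled cells). They turned to -0.24 without treated control replicate 1 and to -0.66 without treated KO-labelled replicate 2.

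Across the members, treated libraries lay wholly above untreated ones for 1 and wholly below for 4 of 10 members in control cells, where 27.4% of all tested genes were wholly above and 26.3% wholly below. In KO-labelled cells it was 2 above and 3 below of 10, with 28.4% and 28.3% of all tested genes. The median log2 fold change of the 10 members was 0.11 in control and 0.33 in KO-labelled cells, beside 0.016 and 0.0 over all genes tested. *Nrg1*, *Erbb2* and *Erbb3* were the members with treated below untreated libraries in both genotypes, and *Egfr* was the member with treated above untreated libraries in both.

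**Figure D3:**
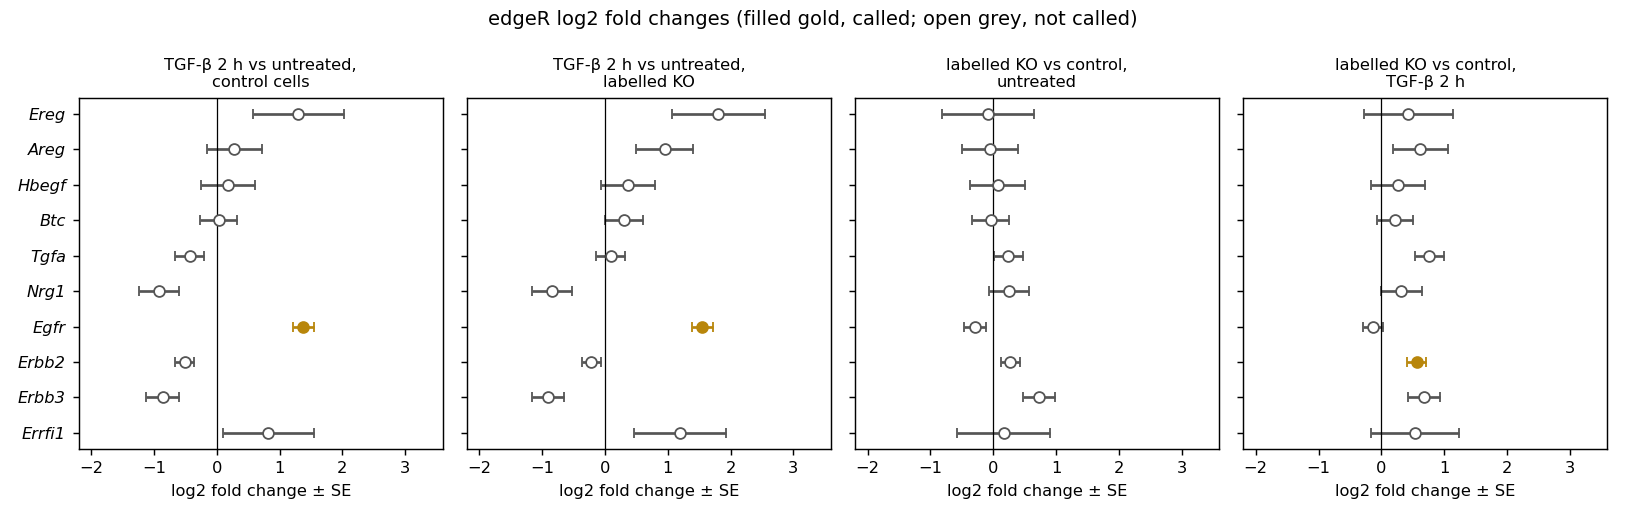
edgeR log2 fold change of each member with its standard error in 4 comparisons of 2 against 2 libraries, filled where called (adjusted p below 0.05 and absolute log2 fold change above 0.5). *Egfr* is called for TGF-β in both genotypes at 1.38 and 1.55, *Erbb2* is called between treated genotypes at 0.56, and the error bars of *Ereg* and *Errfi1* are the longest.

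Treated replicates differed in the same direction for the ligands and *Errfi1*. The log2 CPM of treated control replicate 1 minus replicate 2 was 1.88 for *Ereg*, 1.64 for *Errfi1*, 0.83 for *Hbegf*, 0.78 for *Btc*, 0.58 for *Areg*, 0.38 for *Tgfa* and 0.36 for *Nrg1*. In treated KO-labelled cells replicate 2 minus replicate 1 was 2.56 for *Ereg*, 2.64 for *Errfi1*, 1.39 for *Hbegf*, 1.63 for *Areg*, 0.86 for *Nrg1*, 0.67 for *Tgfa* and 0.27 for *Btc*. All 6 ligands and *Errfi1* thus had the same direction in both treated pairs, at different sizes, and so had *Erbb2*. Over all 13028 tested genes, replicate 1 minus replicate 2 correlated at -0.47 between the treated pairs, so this arrangement was not particular to the members. The share of all genes with the same direction at any size was not counted. The absolute difference of *Ereg* between treated replicates was above that of 98.5% of tested genes in control and 99.8% in KO-labelled cells, and for *Errfi1* these shares were 97.5% and 99.8%. The receptors had differences of -0.16 and 0.08 for *Egfr*, 0.08 and 0.27 for *Erbb2* and 0.29 and -0.17 for *Erbb3*. Across all 13028 tested genes, 690 (5.30%) were higher by over 0.5 on the log2 scale in both treated control replicate 1 and treated KO-labelled replicate 2, and *Ereg*, *Areg*, *Hbegf* and *Errfi1* were among them. Another 646 genes (4.96%) were lower by as much in both of these libraries, none of them a member. Genes that were higher in replicate 1 of both treated pairs numbered 95, as did those higher in replicate 2 of both. The libraries with high *Ereg* also had the larger total of their pair, 11210495 against 9895118 counts in control and 13574397 against 12761749 in KO-labelled cells. The summed level of the 10 epithelial markers was also higher in these libraries, 10939.6 against 8028.9 CPM in control and 10399.7 against 7939.4 CPM in KO-labelled cells. *Krt8*, *Krt18* and *Cldn4* followed this direction in both pairs, whereas *Krt19* (928.1 against 940.5 CPM) and *Cdh1* (237.6 against 242.2 CPM) did not in control cells. The part of library depth or of these markers in the difference was not tested.

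**Figure D4:**
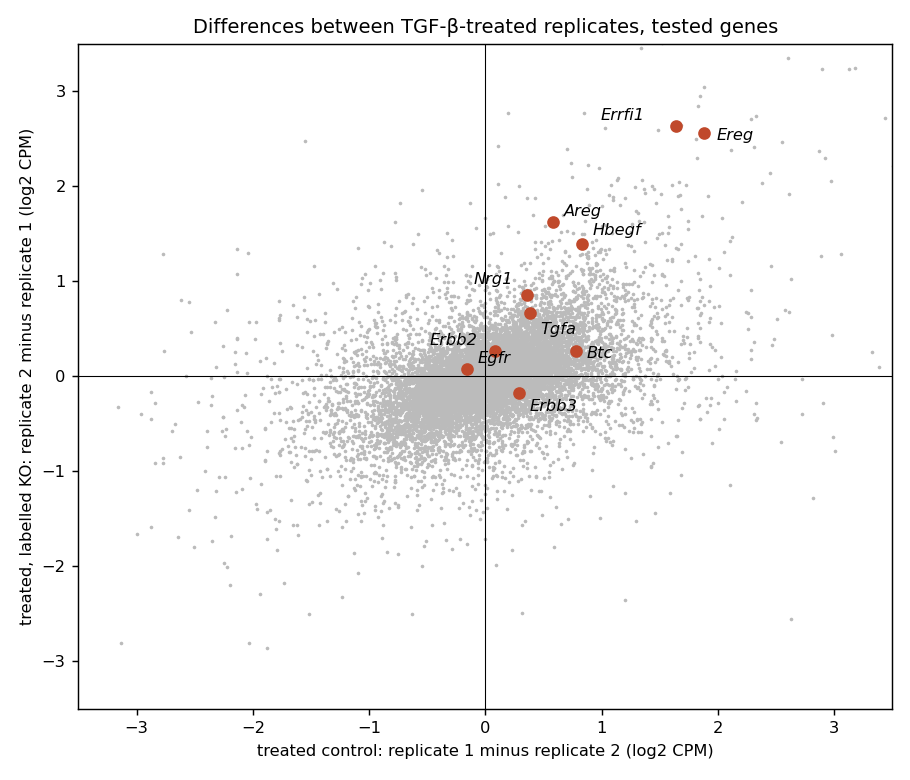
Log2 CPM difference between the 2 treated control libraries (x, replicate 1 minus 2) and between the 2 treated KO-labelled libraries (y, replicate 2 minus 1) for the tested genes within the axis limits (grey) and the 10 members (red). *Errfi1* and *Ereg* lie far to the upper right, *Areg* and *Hbegf* follow, and *Egfr*, *Erbb2* and *Erbb3* lie near 0.

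Over the 8 libraries, *Ereg* and *Errfi1* were correlated with a Pearson r of 0.96, *Hbegf* and *Errfi1* with 0.95, *Areg* and *Errfi1* with 0.94, *Areg* and *Hbegf* with 0.92 and *Areg* and *Ereg* with 0.91 (log2 CPM, n = 8). The 8 libraries differ in treatment and depth. Treated control replicate 1 and treated KO-labelled replicate 2 were the highest for *Ereg* (255.3 and 374.4 CPM) and *Errfi1* (82.1 and 135.3 CPM). The correlations without these libraries were not computed. *Nrg1* had an r of -0.75 with *Egfr*, 0.75 with *Erbb2* and 0.78 with *Erbb3* (n = 8). The 3 tested genes most like *Egfr* by Pearson r over the 8 libraries were *Wisp1* (0.997), *Skil* (0.996) and *Schip1* (0.993). *Skil*, a SMAD-binding repressor that TGF-β induces, was at 100.4 and 137.4 CPM in untreated and 528.4 and 487.4 CPM in treated control cells, and at 82.7 and 102.9 CPM and 453.5 and 490.4 CPM in the KO-labelled cells. Like *Egfr*, it was higher in each treated library than in each untreated one. The genes most like *Areg* were *Ncoa5* (0.954), *Dhx33* (0.954) and *Etv6* (0.949), and those most like *Errfi1* were *Snhg12* (0.963), *Ereg* (0.960) and *Etv6* (0.960). The ETS factor gene *Etv6* was at 56.3 and 44.7 CPM in treated control and 41.6 and 66.4 CPM in treated KO-labelled cells, with the same high libraries at a smaller difference.

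**Figure D5:**
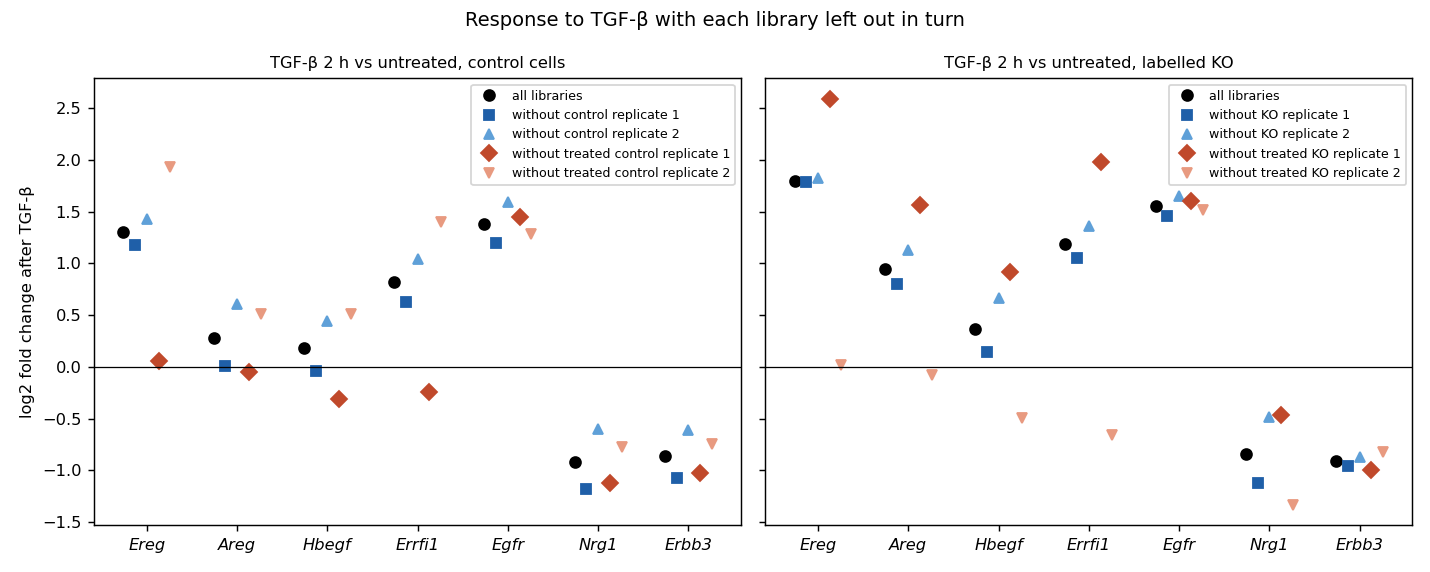
Log2 fold change after TGF-β of 7 members in control (left) and KO-labelled cells (right) with all libraries (circle) and with each library of the comparison left out in turn. *Ereg*, *Areg*, *Hbegf* and *Errfi1* come down to between -0.66 and 0.06 without the high treated library, while *Egfr* stays between 1.20 and 1.65.

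Leaving out the other treated library had the opposite effect. Without treated KO-labelled replicate 1, *Areg* (1.56, edgeR adjusted p = 0.0139), *Ereg* (2.59, adjusted p = 0.0184) and *Errfi1* (1.98, adjusted p = 0.0389) were called along with *Egfr*. In that fit the single remaining treated library is assumed to vary as the other groups do. Without treated control replicate 2, the log2 fold change in control cells was 1.93 for *Ereg* and 1.40 for *Errfi1*, and neither was called. Over the 10 alternatives the adjusted p of *Ereg* ran from 4.48e-10 to 0.964 in control and from 4.78e-20 to 0.994 in KO-labelled cells, that of *Errfi1* from 0.00194 to 0.864 and from 2.12e-07 to 0.684, and that of *Areg* in KO-labelled cells from 8.74e-06 to 0.944. Each of the lowest values came from edgeR without a filter on low counts.

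Between genotypes without TGF-β no member was called, where 1.83% of all tested genes were, 1.03% as higher and 0.798% as lower (edgeR). DESeq2 called 0 members as well, and 1 member had an unadjusted p below 0.05, as had 1936 of the 13028 tested genes. That member was *Erbb3*, at a mean of 20.2 ± 0.881 CPM (SD, n = 2) in KO-labelled and 12.2 ± 2.76 CPM (SD, n = 2) in control cells. Its log2 fold change was 0.73 ± 0.25 (SE), or 1.66-fold (edgeR, adjusted p = 0.204). KO-labelled libraries were wholly above control ones for *Erbb3*, *Erbb2* and *Tgfa*, 3 of 10 members, and wholly below for 0, beside 26.8% and 25.2% of all tested genes. *Egfr* had a log2 fold change of -0.29 ± 0.17 (SE), with overlapping libraries (edgeR, adjusted p = 0.452). For *Ereg* and *Errfi1* the values were -0.08 ± 0.73 (SE) and 0.17 ± 0.74 (SE), and these wide errors carry the spread of the treated libraries, since all 4 groups shared 1 estimate of variation per gene. The median over the members was 0.12, beside 0.018 over all genes tested.

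Between genotypes with TGF-β, *Erbb2* was called as higher in the KO-labelled cells, 1 of 10 members beside 15.0% of all tested genes called, 8.47% as higher and 6.57% as lower. Its treated libraries, 62.4 and 75.4 CPM labelled KO against 48.0 and 45.3 CPM in control, did not overlap. The log2 fold change was 0.56 ± 0.15 (SE), or 1.48-fold (edgeR, adjusted p = 0.0333). This call did not withstand every setting. The adjusted p was 0.221 without treated KO-labelled replicate 2, with a log2 fold change of 0.43, and 0.0919 without treated control replicate 2, with 0.54. In a fit of only these 4 libraries it was 0.136, and over the 10 alternatives it ran from 0.0234 to 0.221. *Tgfa* lay just outside the threshold at a log2 value of 0.76 ± 0.23 (SE), or 1.69-fold, and KO-labelled libraries wholly above control ones (edgeR, adjusted p = 0.0507). DESeq2, RLE factors in edgeR, the fit without a filter and the fits without treated control replicate 1 or treated KO-labelled replicate 1 called it, and its adjusted p over the alternatives ran from 0.000986 to 0.335. *Erbb3* had 0.68 ± 0.25 (SE), again with all KO-labelled libraries above control ones (edgeR, adjusted p = 0.102). *Egfr* had -0.13 ± 0.16 (SE) (edgeR, adjusted p = 0.631). KO-labelled libraries lay wholly above control for 3 and wholly below for 1 of 10 members, beside 28.4% and 27.4% of all tested genes. The treated genotype comparison shares its libraries with both TGF-β comparisons and is not independent of them.

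The difference between the TGF-β responses of the genotypes was tested as an interaction. No member was called, and neither was any other of the 13028 genes (edgeR, 0.0% called). At an unadjusted p below 0.05 there were 1134 genes and 0 members, and DESeq2, which gave no adjusted p for *Btc* and *Erbb3*, called 30 genes and 0 members. For *Egfr* the response in KO-labelled cells exceeded that in control by 0.17 on the log2 scale, with a 95% interval of -0.35 to 0.68 (edgeR, adjusted p = 0.886). For *Areg*, which had the largest value, it was 0.67 with an interval of -0.74 to 2.08 (edgeR, adjusted p = 0.801). *Erbb3* had -0.06 with an interval of -0.86 to 0.75, and *Nrg1* had 0.08 with an interval of -0.93 to 1.08. For *Ereg* (-1.78 to 2.79) and *Errfi1* (-1.92 to 2.64) the intervals hold both large losses and large gains, so that these libraries cannot show whether the responses differ.

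Of the other genes of the family, *Erbb4* and *Nrg3* were at 0 in all libraries, *Nrg2*, *Nrg4* and *Epgn* stayed below 1 CPM, and *Egf* lay between 0.556 and 2.42 CPM. Transcripts of *Erbb4*, whose product also binds neuregulin 1 and HB-EGF, were thus not detectable at this depth. *Egf* was the only one of these 6 genes with enough reads to be tested and was called in no comparison. Among 8 genes of ligand shedding, *Timp3*, an inhibitor of ADAM17, was called as higher after TGF-β in both genotypes. It was at 0.844 and 0.610 CPM in untreated and 21.4 and 14.3 CPM in treated control cells, a log2 fold change of 4.59 ± 0.52 (SE) (edgeR, adjusted p = 0.00230). In KO-labelled cells it had 0 counts in both untreated libraries and 2.77 and 5.64 CPM after TGF-β, at least 7.94-fold higher against 3 counts per untreated library (edgeR, adjusted p = 0.00579). Between the treated genotypes *Timp3* was lower in KO-labelled cells, at -2.08 ± 0.41 (SE) on the log2 scale (edgeR, adjusted p = 0.0141). *Rhbdf1*, an inactive rhomboid that matures ADAM17, was higher there, with 0.90 ± 0.25 (SE), and had its highest level, 124.7 CPM, in treated KO-labelled replicate 2 (edgeR, adjusted p = 0.0366). The sheddase genes *Adam10* and *Adam17* themselves were called in no comparison.

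Of 24 tested genes for adaptors and effectors of the receptors, *Map2k1*, which encodes the kinase MEK1, was called as higher after TGF-β in both genotypes. It was at 144.4 and 112.4 CPM in untreated and 226.9 and 182.6 CPM in treated control cells, and the log2 fold change was 0.67 ± 0.17 (SE) in control and 0.78 ± 0.17 (SE) in KO-labelled cells (edgeR, adjusted p = 0.0386 and 0.0267). *Stat3* was called in control cells, with 0.65 ± 0.16 (SE), and had 0.59 ± 0.16 (SE) in KO-labelled cells (edgeR, adjusted p = 0.0392 and 0.0628). Between treated genotypes the PI3 kinase subunit genes *Pik3r2* and *Pik3ca* were called in opposite directions, at 0.71 ± 0.14 (SE) and -0.58 ± 0.15 (SE) in KO-labelled relative to control cells (edgeR, adjusted p = 0.0130 and 0.0294). The other listed subunit genes were not called. Among 14 tested genes of receptor attenuation, *Sh3kbp1*, an adaptor in receptor endocytosis, was the only one called. It was lower in treated KO-labelled than in treated control cells, with -0.78 ± 0.22 (SE) (edgeR, adjusted p = 0.0403). Together, 3 of the 47 tested genes of these lists were called after TGF-β in control cells and 2 in KO-labelled cells, all as higher, and 0 between untreated and 5 between treated genotypes. That is 6.38%, 4.26%, 0.0% and 10.6%, beside 9.16%, 6.82%, 1.83% and 15.0% of all tested genes. Of the 47 genes, 5 were higher by over 0.5 on the log2 scale in both treated control replicate 1 and treated KO-labelled replicate 2. They were *Src*, *Rhbdf1*, *Timp3*, *Lrig1* and *Socs3*, a group chosen after its values were seen. *Lrig1*, which encodes an inhibitor of ErbB receptors, was at 196.6 and 105.6 CPM in treated control and 82.6 and 180.5 CPM in treated KO-labelled cells, in the same high libraries as *Ereg* and *Errfi1*.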

How the data were processed

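RNA-seq libraries of NMuMG cells, 2 biological replicates in each of 4 groups, were analysed. The table deposited by the authors holds raw read counts per gene, as whole numbers and not normalized, in 8 columns that were all used. In the paper's methods the authors aligned reads with subjunc of Rsubread to mm10 and mm9, removed duplicates with samtools rmdup and tested with DESeq2. The submitters' processing notes name HISAT2, limma and mm10 instead, and paper and labels also differ on RNA extraction, library kit, sequencer and read layout. Which tool counted the reads, and whether by strand, is not given in the sources used here. Removal of duplicates can lower the counts of abundant genes. The 37310 gene identifiers and their order equal GENCODE vM1 on NCBIM37 (mm9), from which symbols, positions and exon lengths were taken.

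CPM (scaled with TMM factors) and all main tests came from edgeR 4.0.16 under R 4.3.3. The 13028 genes kept by filterByExpr were fitted over all 8 libraries with glmQLFit and a term per group, tested with glmQLFTest (two-sided) and adjusted by the Benjamini-Hochberg method over all genes tested. To be called, a gene needed an adjusted p under 0.05 together with a log2 fold change of over 0.5 in size, and for the interaction the adjusted p alone. A standard error is the absolute log2 fold change divided by the square root of F, and 95% intervals used 9.5 degrees of freedom. The log2 CPM of replicate differences and correlations had a prior count of 2. With 2 libraries a group, each p-value sets a difference against a spread estimated from all 8 libraries and drawn toward that of other genes. It speaks for these libraries only. On simulated counts for TGF-β in control cells, in a step of 13028 genes, the test called 89 of 100 genes changed by 2 on the log2 scale, 44 of 100 changed by 1 and 6 of 12828 left unchanged. Each simulated library was drawn independently, without the differences that many genes shared between treated replicates. These rates therefore do not describe the libraries themselves.

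Alternatives were DESeq2 1.42.0, RLE factors, no filter, a filter at a mean count of 10, a replicate block, a fit of only the compared libraries, calls by adjusted p alone, and leaving out each library. The exchanged replicate block was added after seeing the data. The members, pathway lists and marker lists were chosen with earlier results of these data known. Named genes are the 10 members, the targeted gene, at most the 3 called genes with the smallest p per pathway list and comparison, and the 3 genes with the highest Pearson r to the receptor and the ligand with the highest level per kilobase and to *Errfi1*. The genes shown for the difference between treated replicates were chosen after their values were seen, and so were *Adam10*, *Adam17* and the markers given by level. Of 54 listed pathway genes 53 were found by symbol and 47 were tested. Promoters were matched by symbol for 6 of 10 members.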

Additional observations from a re-analysis of the deposited data

How the results depend on the processing

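Outside of the fits that leave out a library, 267 of 288 log2 values of members (4 comparisons and the interaction) kept their direction and their side of the threshold, 17 passed it in addition, 2 no longer passed it and 2 changed sign. Those 2 were the interactions of *Erbb3* without a filter (0.01) and of *Nrg1* with the replicate block (0.0, just below 0). For TGF-β in control cells DESeq2 called 2 members (*Egfr* and *Nrg1*) and edgeR without a filter 5. For TGF-β in KO-labelled cells DESeq2 and the fit of only the compared libraries each called 2 (*Egfr* and *Erbb3*) and edgeR without a filter 6. Between treated genotypes DESeq2 and RLE factors each called 2 (*Erbb2* and *Tgfa*), edgeR without a filter 4, and the fit of only the compared libraries 0. Without the filter 20463 genes entered, the prior degrees of freedom became infinite, and genes with large replicate differences such as *Ereg* and *Errfi1* were tested with the same spread as others.

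The replicate block was fitted although same-numbered libraries share only a number. Their deviations from the group means correlated over genes with 0.30 (control and treated control), -0.0092 (KO-labelled and treated KO-labelled), 0.098 (untreated) and -0.47 (treated). With the replicate block 0 members were called between treated genotypes, where *Erbb2* had a log2 fold change of 0.56 and an adjusted p of 0.0552, and the calls of *Egfr* were the same. With the numbers exchanged in treated KO-labelled cells 2 members and 2809 genes were called between treated genotypes, against 1 and 1959 without a block and 1490 genes with the block as numbered. Over all genes, the numbers called without a filter, with DESeq2 and in the fit of only the compared libraries were 756, 428 and 797 between untreated genotypes (238 as reported), 2021, 1479 and 483 for TGF-β in control cells (1194), 1832, 1237 and 929 in KO-labelled cells (889), and 2823, 2172 and 402 between treated genotypes (1959), and the block gave 150, 831 and 676 for the first 3. For the interaction edgeR without a filter called 211 genes, DESeq2 30 and the reported fit 0, with no member in any. The cause of these shifts was not tested beyond the fits' own construction.

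With each library left out in turn, 1 to 4 members were called for TGF-β in KO-labelled cells and 0 to 3 between treated genotypes, and in the other comparisons the count was the same. The genes called in these fits numbered 136 to 827 for TGF-β in KO-labelled cells, 486 to 2788 between treated genotypes, 139 to 1479 for TGF-β in control cells, 41 to 53 between untreated genotypes and 0 to 6 for the interaction. The log2 fold changes that changed sign were, between untreated genotypes, *Areg* (-0.33 to 0.28), *Ereg* (-0.19 to 0.05), *Hbegf* (-0.24 to 0.32), *Btc* (-0.15 to 0.09), *Nrg1* (-0.11 to 0.56) and *Errfi1* (-0.02 to 0.38). For TGF-β in control cells they were *Areg* (-0.05 to 0.61), *Hbegf* (-0.31 to 0.51), *Btc* (-0.43 to 0.35) and *Errfi1* (-0.24 to 1.40). In KO-labelled cells they were *Areg* (-0.08 to 1.56), *Hbegf* (-0.49 to 0.92), *Tgfa* (-0.28 to 0.39) and *Errfi1* (-0.66 to 1.98). Between treated genotypes they were *Areg* (-0.41 to 1.22), *Ereg* (-1.35 to 1.66), *Hbegf* (-0.60 to 0.80), *Btc* (-0.10 to 0.68), *Nrg1* (-0.17 to 0.70) and *Errfi1* (-1.32 to 1.58), and for the interaction *Areg* (-0.34 to 1.29), *Ereg* (-1.26 to 1.75), *Hbegf* (-0.65 to 0.75), *Btc* (-0.04 to 0.73), *Nrg1* (-0.40 to 0.47), *Egfr* (-0.04 to 0.35), *Erbb3* (-0.31 to 0.16) and *Errfi1* (-1.47 to 1.43). None of these was called with all libraries. Where 1 library of a group remained, it was assumed to vary like the other groups.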
